A study of Mus musculus with 12 samples.

Results

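The neutrophil-attracting CXC chemokines of whole mouse lung are described here as 8 genes named by symbol: *Cxcl1*, *Cxcl2*, *Cxcl3*, *Cxcl5*, *Cxcl15*, *Ppbp*, *Pf4* and *Csf3*. All 8 were found among the 54532 identifiers of the count table, and all 8 passed the low-count filter that left 17473 genes for testing. *Csf3* passed it through CRE libraries alone. The symbols were given, and no value of these libraries entered the rule. *Csf3* is no chemokine, and *Pf4* lacks the ELR motif that marks the neutrophil-attracting CXC chemokines, so the name of the set holds strictly for the other 6.

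Poly(A) RNA of lung was sequenced in 4 groups of 3 libraries, all from mice carrying Cc10-Cre, a transgene that expresses Cre recombinase in club cells (Clara cells), the secretory cells of the airway lining. CKO_CRE mice were Cc10-Cre;Rhoafl/fl (labelled RhoACKO) and received a treatment labelled CRE. WT_CRE mice were Cc10-Cre alone (labelled RhoAWT) with the same treatment. CKO_PBS mice were Cc10-Cre;Rhoafl/fl given PBS, and WT_PBS mice were Cc10-Cre given PBS. CRE is not spelled out in the labels and is distinct from the Cre recombinase. Every group thus carries Cre, the floxed allele is the difference between genotypes, and no source used here gives the age, strain or dosing time of the mice. The series title concerns club cell RhoA, allergic airway inflammation and interstitial macrophages, so the comparisons ask what CRE and the club cell *Rhoa* allele do to lung RNA.

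CXC chemokines of the ELR type are small secreted proteins that bind CXCR2 on neutrophils and draw them out of blood. In lung, CXCL1, CXCL2, CXCL3 and CXCL5 are made on demand by epithelium, macrophages and other cells after IL-1, TNF, IL-17 or microbial signals act through NF-kB, whereas CXCL15, also called lungkine, is made steadily by the lung epithelium of the mouse. PPBP and PF4 are stored in platelet granules, and G-CSF, the product of *Csf3*, makes bone marrow produce and release neutrophils.

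Library totals ran from 16250674 to 21559210 counts. *Rhoa*, the floxed gene, stood at 465 to 544 CPM in CKO_CRE and 520 to 530 CPM in WT_CRE, and at 397 to 481 CPM in CKO_PBS and 471 to 487 CPM in WT_PBS, with no call under CRE (log2 -0.07 ± 0.10, adjusted p = 0.728) or PBS (log2 -0.10 ± 0.10, adjusted p = 1). CPM here are counts scaled to library size after TMM normalization, log2 fold changes are given ± SE, and a gene is called at a Benjamini-Hochberg adjusted p below 0.05 over all tested genes in edgeR's quasi-likelihood test. Club cells are a small share of lung, so whole-lung *Rhoa* does not check the labels. CKO_CRE replicate 2 stood apart from its group, with a library quality weight of 0.122 where the other 11 libraries had 0.519 to 3.47, and results that rest on it are given with and without it. By Y-linked counts, CKO_CRE and WT_CRE each held 2 female libraries of 3, CKO_PBS held 1 and WT_PBS held 0, so sex differed along the CRE comparisons. In bulk lung, fewer cells of a type and less RNA per cell cannot be told apart.

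Of these genes 7 lie in 1 cluster on mouse chromosome 5 (GENCODE M21 on GRCm38/mm10), spanning 146.6 kb from 90759360 to 90905938, and all are read from the plus strand. From the low end the order is *Cxcl5* (ENSMUSG00000029371), *Ppbp* (ENSMUSG00000029372), *Pf4* (ENSMUSG00000029373), *Cxcl3* (ENSMUSG00000029379), *Cxcl15* (ENSMUSG00000029375), *Cxcl1* (ENSMUSG00000029380) and *Cxcl2* (ENSMUSG00000058427). Gene starts of the first 5 lie within 35.2 kb of each other, and those of *Cxcl1* and *Cxcl2* lie 131.9 and 144.5 kb from the start of *Cxcl5*. *Csf3* (ENSMUSG00000038067) is on chromosome 11, 98701263 to 98703629. No member had a near-identical copy elsewhere in the transcriptome. The closest pair inside the set was *Cxcl2* and *Cxcl3*, whose transcripts matched at 89.9% over 358 bases, and no source used here says how reads from such stretches were assigned.

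RefSeq promoter windows of GRCm38.p6, from 250 bases before the start to 50 after it, were found for 6 of the 8 genes. *Cxcl5* and *Csf3* had no window, so their promoters were not examined. The stretch from 130 to 11 bases before the start is shown for 5 of them, since *Cxcl1*, *Cxcl2* and *Cxcl3* are the sister chemokines that moved together in these lungs, and *Pf4* and *Ppbp* are the adjacent platelet chemokines that moved in opposite directions in WT lungs. Capitals mark where the NF-kB consensus motif, searched by a pattern with open letters on both strands, matched on the plus strand. All 5 stretches are on the plus strand of chromosome 5, at chr5:90891115-90891234 for *Cxcl1*, chr5:90903769-90903888 for *Cxcl2*, chr5:90785971-90786090 for *Cxcl3*, chr5:90772305-90772424 for *Pf4* and chr5:90768388-90768507 for *Ppbp*.
Cxcl1: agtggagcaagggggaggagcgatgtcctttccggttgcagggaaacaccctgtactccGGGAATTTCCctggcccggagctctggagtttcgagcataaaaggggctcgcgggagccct
Cxcl2: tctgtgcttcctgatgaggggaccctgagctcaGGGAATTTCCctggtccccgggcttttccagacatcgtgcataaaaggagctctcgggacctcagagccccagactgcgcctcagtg
Cxcl3: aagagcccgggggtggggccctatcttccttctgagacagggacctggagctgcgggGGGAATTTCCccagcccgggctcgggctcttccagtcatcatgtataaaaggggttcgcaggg
Pf4: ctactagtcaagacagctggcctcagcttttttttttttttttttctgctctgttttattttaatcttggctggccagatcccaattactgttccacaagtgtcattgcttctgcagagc
Ppbp: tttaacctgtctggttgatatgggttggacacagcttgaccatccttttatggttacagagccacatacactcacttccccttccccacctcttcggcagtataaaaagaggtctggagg

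The NF-kB motif stood 71 to 62 bases before the start in *Cxcl1*, 97 to 88 in *Cxcl2* and 73 to 64 in *Cxcl3*, with the same letters each time (GGGAATTTCC, or GGAAATTCCC on the other strand). The pattern also matched the minus strand 1 base further on, overlapping the same site, and nowhere else in these windows. Of all 32817 RefSeq windows of 300 bases, 2776 held the pattern (8.46%) and 29 held those letters (0.0884%), which were taken from the members and so are theirs by construction. The windows of *Pf4*, *Ppbp* and *Cxcl15* had no match, which says only that such letters are absent there. The TATA letters TATAAA, found in 13.6% of windows, were in the windows of *Cxcl3*, *Ppbp* and *Cxcl15*, and the GATA letters AGATAA, found in 11.2%, were in *Pf4* alone, just after the start. The motifs were chosen with the members known, and a match is a description of sequence, not a measured site.

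Compared per length, *Cxcl15* outweighed all other members in every group. It averaged 2003 ± 282 TPM in CKO_CRE, 2049 ± 224 in WT_CRE, 2013 ± 85.8 in CKO_PBS and 1875 ± 174 in WT_PBS (SD, n = 3 each), which placed it 34th, 38th, 33rd and 36th among 17459 ranked genes. Its share of the TPM of the 8 genes was 87.2% ± 6.50 in CKO_CRE, 82.8% ± 2.59 in WT_CRE, 97.8% ± 0.484 in CKO_PBS and 97.1% ± 0.472 in WT_PBS. A steadily made lung chemokine therefore held most of the transcripts of the set, and the share left to the inducible ones was larger in the CRE groups.

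The order of the other levels differed between treatments. In WT_PBS, *Pf4* came next at 32.0 ± 2.72 TPM, followed by *Ppbp* at 11 ± 1.63, *Cxcl1* at 6.46 ± 3.74, *Cxcl3* at 2.79 ± 1.58, *Cxcl5* at 2.73 ± 1.08, *Cxcl2* at 0.999 ± 0.442 and *Csf3* at 0.036 ± 0.0624. The SD range of *Cxcl1* overlapped those of *Ppbp*, *Cxcl3* and *Cxcl5*, and that of *Cxcl3* overlapped those of *Cxcl5* and *Cxcl2*. In WT_CRE the order was *Pf4* at 202 ± 46.3 TPM, *Cxcl3* at 89.1 ± 36.2, *Cxcl5* at 71.5 ± 9.91, *Cxcl1* at 53.0 ± 5.52, *Cxcl2* at 6.91 ± 2.59, *Ppbp* at 5.03 ± 1.52 and *Csf3* at 0.667 ± 0.445. There the SD range of *Cxcl3* overlapped those of *Cxcl5* and *Cxcl1*, and that of *Cxcl2* overlapped that of *Ppbp*. In CKO_CRE, the SD range of *Pf4* at 126 ± 101 TPM overlapped those of *Cxcl3* at 86.4 ± 24.6, *Cxcl5* at 35.2 ± 21.1 and *Cxcl1* at 26.8 ± 8.52. Those of *Cxcl5* and *Cxcl1* also overlapped each other. CKO_PBS kept the 3 highest places of WT_PBS, with *Pf4* at 21.8 ± 5.43, *Ppbp* at 12.1 ± 1.71 and *Cxcl1* at 6.67 ± 5.76 TPM. With *Cxcl15* set aside, *Cxcl3* made up 31.7% ± 7.01 of the members' TPM in CKO_CRE and 20.3% ± 3.79 in WT_CRE, against 5.56% ± 4.26 in CKO_PBS and 4.81% ± 1.98 in WT_PBS.

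**Figure D1:**
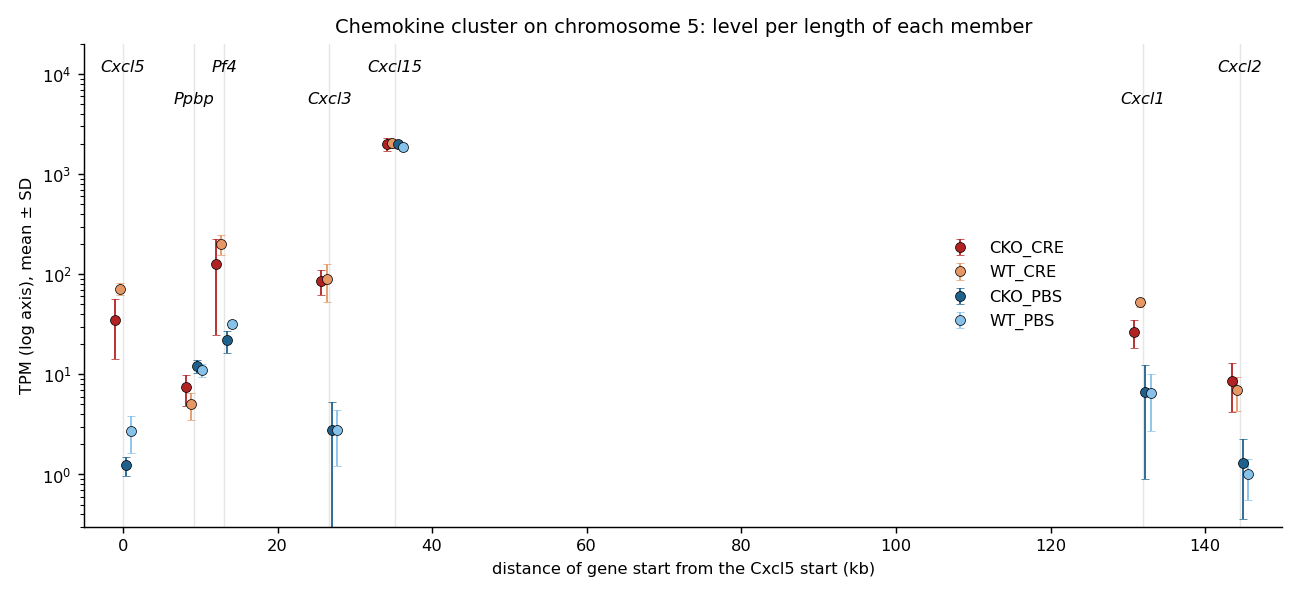
Mean level per length (TPM, log axis, ± SD over 3 libraries) of the 7 members on chromosome 5 against the distance of their start from that of *Cxcl5* in kb, with the 4 groups set slightly apart around each grey line so that they can be told apart. *Cxcl15* sits between 1875 and 2049 TPM in all groups, and the PBS groups of *Cxcl5*, *Cxcl3*, *Cxcl1* and *Cxcl2* lie below the CRE groups. Lower error bars that would reach 0 are cut at the axis.

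CRE raised the inducible ELR chemokines in both genotypes. In CKO lungs 5 of the 8 genes were higher and 0 lower with CRE (background over all tested genes, 39.1% called, 20.6% higher and 18.5% lower), and the libraries of the same 5 did not overlap between the groups (background 49%). In WT lungs 7 were higher and 1 lower (background 57% called, 28.6% higher and 28.4% lower), and none of the 8 overlapped (background 68.5%). *Csf3* was among the 7, but it passed the filter through CRE libraries alone, so its WT call and lack of overlap are no support. The median log2 fold change of the 8 genes was 2.51 in CKO and 3.28 in WT, where that of all tested genes was 0.00 and 0.01. Both medians of the set include *Csf3* (log2 2.25 ± 1.43 in CKO and 4.32 ± 2.41 in WT). With *Csf3* set aside, the middle value of the set was that of *Pf4* in CKO (2.78) and of *Cxcl2* in WT (3.15). Without CKO_CRE replicate 2 the same 5 were called in CKO (background 29.9%), with log2 fold changes of 2.14 ± 0.55 for *Cxcl1*, 2.35 ± 0.50 for *Cxcl2*, 4.81 ± 0.52 for *Cxcl3*, 4.56 ± 0.55 for *Cxcl5* and 1.79 ± 0.19 for *Pf4*.

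**Figure D2:**
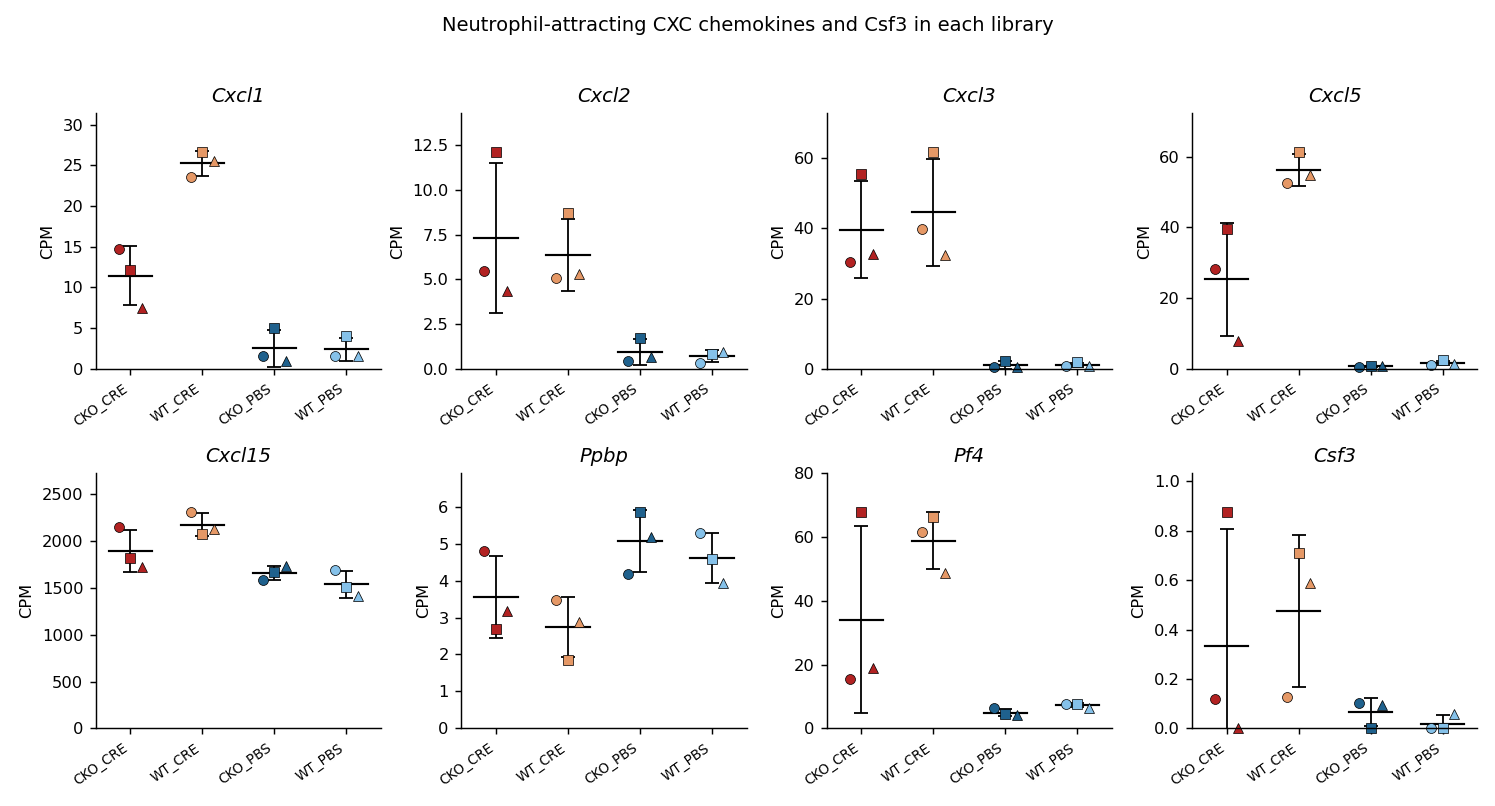
CPM of each member in every library, with circles, squares and triangles for replicates 1, 2 and 3, a line for the mean and a bar for the SD (n = 3 per group), which is cut at 0. The CRE groups lie above the PBS groups for *Cxcl1*, *Cxcl2*, *Cxcl3*, *Cxcl5* and *Pf4*, and CKO_CRE replicate 2 (red square) is the highest *Pf4* library at 67.9 CPM.

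*Cxcl3*, which encodes a CXCR2 ligand, had among the largest fold changes of the set in both genotypes, together with *Cxcl5*. Its levels were 30.5, 55.6 and 32.8 CPM in CKO_CRE, 39.8, 61.7 and 32.3 CPM in WT_CRE, 0.413, 2.31 and 0.576 CPM in CKO_PBS and 0.707, 1.81 and 0.765 CPM in WT_PBS. Every CRE library was far above every PBS library, and the CRE groups covered nearly the same range. The log2 fold change of CRE over PBS was 5.14 ± 0.53 in CKO (35.2-fold, adjusted p = 7.95e-05) and 5.32 ± 0.54 in WT (40.1-fold, adjusted p = 2.11e-05). In each PBS group replicate 2 was the highest, and without it the log2 fold change was 6.30 ± 0.61 in CKO and 5.91 ± 0.69 in WT, both still called. Without CKO_CRE replicate 3 the CKO value was 5.26 ± 0.58 for *Cxcl3* and 5.47 ± 0.30 for *Cxcl5*, so the order of these genes was not fixed, and their difference was not tested.

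*Cxcl5* encodes the ELR chemokine that lung epithelium is known for, and it lies at the low end of the cluster. It was measured at 28.3, 39.5 and 7.93 CPM in CKO_CRE, 52.6, 61.2 and 54.7 CPM in WT_CRE, 0.568, 0.784 and 0.912 CPM in CKO_PBS and 1.16, 2.42 and 1.41 CPM in WT_PBS. CKO_CRE replicate 3 was the lowest CRE library by far, and all CKO libraries lay below all WT libraries of the same treatment. The estimated response to CRE was of like size on the log scale, at 5.04 ± 0.58 in CKO (33.0-fold, adjusted p = 0.000108) and 5.07 ± 0.49 in WT (33.5-fold, adjusted p = 2.15e-05). The difference between these responses was -0.02 ± 0.76, with a 95% interval of -1.69 to 1.64.

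*Cxcl1*, the mouse KC chemokine, gave 14.7, 12.1 and 7.52 CPM in CKO_CRE, 23.6, 26.6 and 25.5 CPM in WT_CRE, 1.55, 5.03 and 0.912 CPM in CKO_PBS and 1.56, 3.98 and 1.59 CPM in WT_PBS. The WT_CRE libraries were tightly grouped, and each CKO_CRE library was below each of them. CRE raised it by log2 2.18 ± 0.50 in CKO (4.53-fold, adjusted p = 0.00624) and 3.40 ± 0.50 in WT (10.5-fold, adjusted p = 0.000255). Replicate 2 was again the highest PBS library of each genotype, and without it the log2 fold change was 3.22 ± 0.44 in CKO and 3.99 ± 0.56 in WT. The difference between the responses was log2 -1.21 ± 0.71, with a 95% interval of -2.77 to 0.34, and was not called (adjusted p = 0.555). It ran from -1.81 to -0.17 with 1 library left out, the value nearest 0 being that without CKO_PBS replicate 2.

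*Cxcl2*, the MIP-2 chemokine and the closest relative of *Cxcl3* here, was lower in level. Its values were 5.46, 12.1 and 4.35 CPM in CKO_CRE, 5.10, 8.68 and 5.29 CPM in WT_CRE, 0.413, 1.75 and 0.672 CPM in CKO_PBS and 0.353, 0.855 and 0.942 CPM in WT_PBS. The CRE groups overlapped each other and lay above both PBS groups. The log2 fold change of CRE over PBS was 2.93 ± 0.53 in CKO (7.61-fold, adjusted p = 0.0018) and 3.15 ± 0.56 in WT (8.88-fold, adjusted p = 0.000634), and in CKO it was 3.73 ± 0.58 without CKO_PBS replicate 2.

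Within groups, the inducible ELR genes varied together to differing degrees. Over the 12 libraries, the deviations from the group means of log2 CPM correlated at r = 0.85 between *Cxcl2* and *Cxcl3*, 0.76 between *Cxcl1* and *Cxcl3* and 0.59 between *Cxcl1* and *Cxcl2*. For *Cxcl5* the values were 0.45 with *Cxcl1*, 0.62 with *Cxcl2* and 0.41 with *Cxcl3*. These are descriptions over libraries that share a group, and all values come from the same 12 libraries. By plain log2 CPM over the 12 libraries the genes outside the set most like *Cxcl3* were *Csf2rb2* (r = 0.993), *Tbxas1* (0.992) and *Gna15* (0.990), those most like *Cxcl2* were *Ttk* (0.979), *Csf2rb* (0.978) and *Tube1* (0.978), and those most like *Cxcl1* were *Chil1* (0.974), *Nme7* (0.970) and *P2ry2* (0.966), of 13657 genes compared. *Csf2rb2* also followed *Cxcl3* within groups (r = 0.925 of deviations), where *Il1rl1*, the IL-33 receptor gene, was closest (0.959).

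*Cxcl15*, which encodes the lung epithelial chemokine lungkine, changed little beside the inducible genes. It stood at 2148, 1821 and 1720 CPM in CKO_CRE, 2314, 2082 and 2135 CPM in WT_CRE, 1581, 1666 and 1735 CPM in CKO_PBS and 1695, 1506 and 1417 CPM in WT_PBS. CKO_CRE replicate 3 lay inside the range of CKO_PBS, while the WT groups did not overlap. In CKO the log2 fold change of CRE over PBS was 0.19 ± 0.12 with a 95% interval of -0.06 to 0.44 (adjusted p = 0.206), and in WT CRE raised it by log2 0.50 ± 0.12 (1.41-fold, adjusted p = 0.00308). The test of the difference between the genotypes gave log2 -0.31 ± 0.16 (adjusted p = 0.523), so a smaller response in CKO was not shown. Per length, where all genes of a library add up to the same total, the WT means were closer, at 2049 TPM in WT_CRE and 1875 TPM in WT_PBS.

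Markers of type 2 alveolar cells, an epithelial source of secreted lung proteins, had summed levels of 22752 to 26888 CPM in CKO_CRE, 21359 to 25475 in WT_CRE, 28130 to 29743 in CKO_PBS and 26081 to 28495 in WT_PBS. Of the 8 tested, 2 rose and 3 fell with CRE in each genotype (median log2 -0.17 in CKO and -0.31 in WT). Over all tested genes 20.6% were called higher and 18.5% lower in CKO, and 28.6% and 28.4% in WT. These shares, with all libraries in the fit, are the background of every list count for CRE below. The smallest p-values in WT were those of *Sftpd*, which rose (log2 1.32 ± 0.16), and *Sftpb*, which fell (log2 -0.76 ± 0.11), while *Abca3* fell by more (log2 -0.95 ± 0.18). Of 8 club cell markers 7 fell in each genotype (median log2 -1.38 in CKO and -2.03 in WT), with sums of 1239 to 2289 CPM in CKO_CRE, 1213 to 1328 in WT_CRE, 4151 to 4922 in CKO_PBS and 5747 to 5856 in WT_PBS. *Cxcl15* was thus higher in WT_CRE than in WT_PBS while the summed markers of both epithelial types were lower. The largest part of the type 2 sum was *Sftpc*, at 9492 ± 981 CPM in WT_CRE and 14641 ± 842 in WT_PBS. *Sftpd* and *Sftpa1* (log2 0.57 ± 0.11) rose in WT as *Cxcl15* did, so the sum does not stand for all type 2 markers. The part of these cell types in the *Cxcl15* result was not tested.

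The platelet chemokines *Ppbp* and *Pf4*, whose genes are neighbours, parted in WT lungs. *Pf4*, which encodes platelet factor 4, was at 15.4, 67.9 and 18.9 CPM in CKO_CRE, 61.5, 66.2 and 48.8 CPM in WT_CRE, 6.25, 4.38 and 4.22 CPM in CKO_PBS and 7.52, 7.70 and 6.53 CPM in WT_PBS. All CRE libraries were above all PBS libraries, and CKO_CRE replicate 2 lay just above the WT_CRE libraries while the other CKO_CRE libraries lay far below them. CRE raised *Pf4* by log2 2.78 ± 0.46 in CKO (6.89-fold, adjusted p = 0.0012) and 3.02 ± 0.45 in WT (8.09-fold, adjusted p = 0.000264). Without CKO_CRE replicate 2 the CKO value of 2.78 became 1.79 ± 0.19.

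*Ppbp*, which encodes the precursor of platelet basic protein, moved the other way. It was at 4.80, 2.68 and 3.17 CPM in CKO_CRE, 3.47, 1.86 and 2.88 CPM in WT_CRE, 4.18, 5.86 and 5.18 CPM in CKO_PBS and 5.30, 4.58 and 3.94 CPM in WT_PBS. CKO_CRE replicate 1 reached into CKO_PBS, and the WT groups did not overlap, with WT_CRE lower. The CKO value was log2 -0.52 ± 0.27 with a 95% interval of -1.11 to 0.08 (adjusted p = 0.151), and in WT *Ppbp* fell by 0.76 on the log2 scale (SE 0.28, adjusted p = 0.0345). In WT the adjusted p was 0.11 and 0.0695 without WT_PBS replicate 1 and 2, 0.13 and 0.059 without WT_CRE replicate 2 and 3 and 0.142 with sex as a covariate, so each of these ended the call, whereas leaving out CKO_CRE replicate 1 made a call in CKO (log2 -0.79, adjusted p = 0.0389).

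Of the markers of platelets and megakaryocytes, 11 tested of 12, 1 rose and 1 fell in CKO (median log2 -0.39), and 1 rose and 3 fell in WT (median log2 -0.59), a share of lower genes near the background of 28.4%. *Clec1b*, a platelet receptor gene, rose in CKO (log2 1.04 ± 0.27, adjusted p = 0.0111) and in WT (log2 1.03 ± 0.27, adjusted p = 0.00719). *Tubb1*, the platelet tubulin gene, fell in WT (log2 -2.00 ± 0.42, adjusted p = 0.00173), as did *Gp5* (log2 -1.94 ± 0.45, adjusted p = 0.00255) and *Gp6* (log2 -2.31 ± 0.62, adjusted p = 0.00484), which encode platelet surface receptors. *Gp6* also fell in CKO (log2 -1.61 ± 0.53, adjusted p = 0.0268). The summed markers stood at 70.5 to 89.0 CPM in CKO_CRE, 82.6 to 89.3 in WT_CRE, 72.3 to 84.7 in CKO_PBS and 82.7 to 87.4 in WT_PBS, and *Gp1bb* had no count in any library. *Itgb3* was the largest part of these sums, at 42.3 ± 6.28 CPM in CKO_CRE, 54.0 ± 2.47 in WT_CRE, 41.2 ± 3.6 in CKO_PBS and 50.0 ± 1.4 in WT_PBS. The sum therefore does not stand for *Tubb1*, *Gp5* and *Gp6*, which fell in WT. *Tubb1* was also the gene most like *Ppbp* over the 12 libraries (r = 0.968) and the second most like it within groups (r = 0.958). Red cell markers summed to 269 to 472 CPM in CKO_CRE, 193 to 1249 in WT_CRE, 104 to 327 in CKO_PBS and 174 to 370 in WT_PBS, so this sum varied most in WT_CRE.

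*Pf4* is also expressed by some tissue macrophages of the mouse, and most of the interstitial macrophage markers rose with CRE, as *Pf4* did. Their summed levels were 1390, 2312 and 1706 CPM in CKO_CRE, 2533, 2317 and 2309 CPM in WT_CRE, 705, 778 and 725 CPM in CKO_PBS and 626, 811 and 910 CPM in WT_PBS. CKO_CRE replicate 2 was in the WT_CRE range for this sum, and the other CKO_CRE libraries were below it, as for *Pf4*. Of the 10 markers 9 rose and 1 fell with CRE in CKO (median log2 2.44), and 8 rose and 1 fell in WT (median log2 3.07). The scavenger receptor gene *Cd163* rose (log2 1.96 ± 0.14 in CKO and 3.03 ± 0.14 in WT). *Lyve1*, the largest part of the PBS sums (396 ± 22.2 CPM in CKO_PBS and 452 ± 120 in WT_PBS), fell (log2 -0.90 ± 0.22 in CKO and -1.26 ± 0.22 in WT). Between CKO_CRE and WT_CRE, *Cd163* was called lower (log2 -1.31 ± 0.13, adjusted p = 0.000693) and *Cx3cr1* higher (log2 1.22 ± 0.19, adjusted p = 0.0125). The genes most like *Pf4* in log2 CPM were *Tmem258* (r = 0.995), *Psmb6* (0.992) and *Rcc2* (0.991), and within groups *Olr1* (0.989), a scavenger receptor gene. The part of macrophages or platelets in the *Pf4* and *Ppbp* results was not tested.

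**Figure D3:**
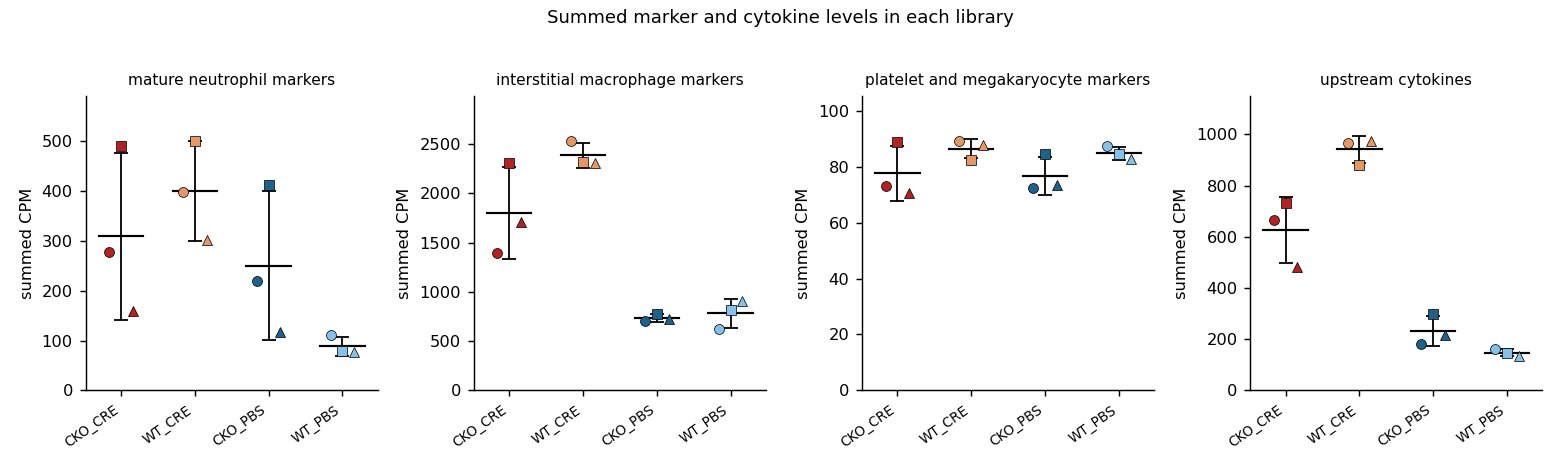
Summed CPM of the mature neutrophil, interstitial macrophage, and platelet and megakaryocyte markers and of the upstream cytokines in every library (circles, squares and triangles for replicates 1, 2 and 3), with the mean as a line and the SD as a bar (n = 3 per group). Interstitial macrophage and cytokine sums are higher in both CRE groups, and CKO_PBS lies above WT_PBS for neutrophil markers. Platelet sums, of which *Itgb3* is the largest part, stay between 70.5 and 89.3 CPM.

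*Csf3* was close to the detection limit. It had 2, 15 and 0 counts in CKO_CRE, 2, 13 and 11 counts in WT_CRE, 2, 0 and 2 counts in CKO_PBS and 0, 0 and 1 counts in WT_PBS. Most counts of each CRE group came from 1 or 2 libraries. Per unit of library depth, the ratio of CRE over PBS was 5.14 in CKO (17 against 4 counts, exact 95% interval 1.68 to 21) and 27.1 in WT (26 against 1 counts, exact 95% interval 4.46 to 1113), intervals that cover counting error only. Across libraries it was not called in CKO (adjusted p = 0.174) and was called in WT (adjusted p = 0.0263). Leaving out a library ended the WT call, with an adjusted p of 0.0844 and 0.0852 for WT_PBS replicates 1 and 2 and of 0.0778 and 0.058 for WT_CRE replicates 2 and 3, as did sex as a covariate (0.159), and without WT_PBS replicate 3, which held the only WT_PBS count, the adjusted p was 0.0467. Without CKO_CRE replicate 2, the CKO log2 fold change was -0.11 ± 1.67.

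**Figure D4:**
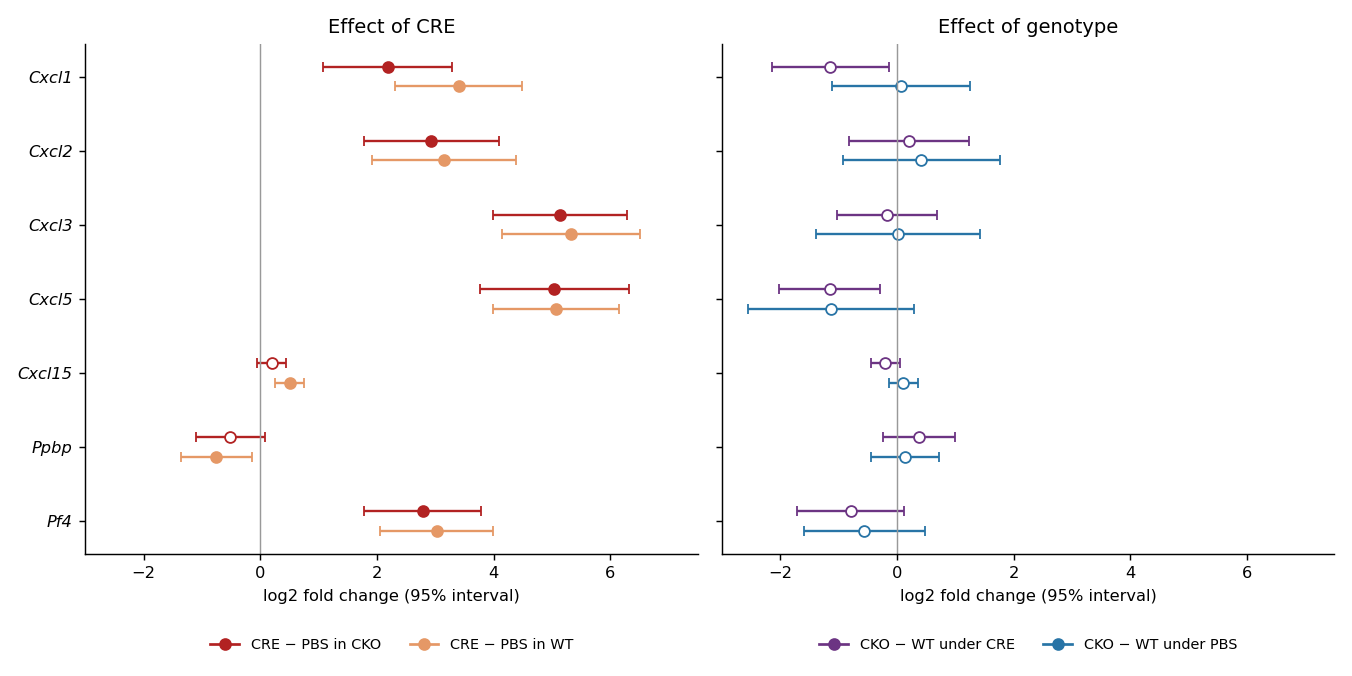
Log2 fold changes with 95% intervals of the 7 members other than *Csf3*, on the left for CRE over PBS in CKO (red) and WT (orange), on the right for CKO over WT under CRE (purple) and PBS (blue). Filled points passed an adjusted p of 0.05 and open points did not, and the points on the right are all open while the intervals of *Cxcl1* and *Cxcl5* under CRE lie below 0.

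Under CRE, no member differed between the genotypes past the threshold. In edgeR 0 of the 8 were called between CKO_CRE and WT_CRE (background 0.916% of all tested genes), 2 had an unadjusted p under 0.05 (background 18.5%) and the libraries of 2 did not overlap (background 15.1%). DESeq2 called 0 (background 4.68%) and limma-voom with library quality weights called 5 (background 43.8%). The 2 genes were *Cxcl5*, at 25.2 ± 16 CPM in CKO_CRE and 56.2 ± 4.48 CPM in WT_CRE (log2 -1.15 ± 0.40, 95% interval -2.02 to -0.29, adjusted p = 0.178), and *Cxcl1*, at 11.4 ± 3.64 and 25.2 ± 1.49 CPM in the same groups (log2 -1.14 ± 0.46, 95% interval -2.14 to -0.14, adjusted p = 0.224). For both, all 3 CKO_CRE libraries lay below all 3 WT_CRE libraries.

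Among the other members under CRE, *Pf4* averaged 34.0 ± 29.4 CPM in CKO_CRE and 58.8 ± 9.02 CPM in WT_CRE (log2 -0.79 ± 0.42, 95% interval -1.71 to 0.13, adjusted p = 0.328). *Cxcl3* and *Cxcl2* were near equality, at log2 -0.17 ± 0.40 (95% interval -1.03 to 0.69) and 0.20 ± 0.47 (95% interval -0.82 to 1.23), both with an adjusted p of 0.835. Whether they differed less than *Cxcl1* and *Cxcl5* was not tested. *Cxcl15* was at log2 -0.20 ± 0.12 (adjusted p = 0.361), *Ppbp* at 0.38 ± 0.28 (adjusted p = 0.473), and *Csf3* had 17 counts in CKO_CRE and 26 in WT_CRE (ratio 0.695, exact 95% interval 0.354 to 1.33).

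The calls under CRE depended on CKO_CRE replicate 2. Without it, 2 members were called as lower in CKO_CRE (background then 28.5% of genes), namely *Cxcl5* (log2 -1.63 ± 0.36, adjusted p = 0.00818) and *Pf4* (log2 -1.78 ± 0.17, adjusted p = 7.78e-05), while *Cxcl1* stayed at log2 -1.18 ± 0.49 (adjusted p = 0.102). That library's *Cxcl1*, at 12.1 CPM, was between the values of the other libraries of its group, and the *Cxcl1* difference was as large without it. Limma-voom, which gives it a low weight, called *Csf3*, *Cxcl1*, *Cxcl5*, *Cxcl15* and *Pf4*, and *Cxcl5* alone was called with no low-count filter (adjusted p = 0.0346, background 2.14%). In the female libraries alone, 2 against 2, the values were log2 -1.41 ± 0.27 for *Cxcl1*, -1.29 ± 0.64 for *Cxcl5* and -0.41 ± 0.55 for *Pf4*, with 0 members called, and with sex as a covariate they were -1.10 ± 0.45, -1.16 ± 0.41 and -0.86 ± 0.42. CKO_CRE and WT_CRE had 1 male library each, too few for a value in males.

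Under PBS, 0 of the 8 members were called between CKO_PBS and WT_PBS in edgeR (background 0.109%), 0 had an unadjusted p under 0.05 (background 5.32%), and DESeq2 (background 0.509%) and limma-voom (background 0.836%) also called 0. The libraries did not overlap for 2 genes (background 15.2%), both lower in CKO_PBS. *Cxcl5* averaged 0.755 ± 0.174 CPM in CKO_PBS and 1.66 ± 0.664 CPM in WT_PBS (log2 -1.13 ± 0.65, 95% interval -2.55 to 0.29, adjusted p = 1), and *Pf4* 4.95 ± 1.12 and 7.25 ± 0.627 CPM in the same groups (log2 -0.56 ± 0.48, 95% interval -1.60 to 0.49, adjusted p = 1). The estimate for *Cxcl5* was thus about the same under both treatments, and neither was called.

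The CRE response itself was called as different between CKO and WT for 0 of the 8 members in edgeR (background 0.0458%), 0 had an unadjusted p under 0.05 (background 10.3%), DESeq2 called 0 (background 0.696%) and limma-voom called 2. The estimates ran from -1.21 ± 0.71 for *Cxcl1* to 0.24 ± 0.39 for *Ppbp* among the 7 genes other than *Csf3*. For *Pf4* it was -0.23 ± 0.64 (adjusted p = 0.903), but -1.22 ± 0.24 without CKO_CRE replicate 2 (adjusted p = 0.00924, background then 14.8%), the 1 call made by leaving out a library. Limma-voom called *Pf4* (log2 -1.09, adjusted p = 0.0272) and *Cxcl15* (log2 -0.47, adjusted p = 0.0157), against a background of 25%.

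Of the receptors of these ligands, 5 were tested, with 1 higher and 1 lower under CRE in CKO (median log2 0.52) and 3 higher in WT (median log2 1.88). *Cxcr2*, the neutrophil receptor of the ELR chemokines, was at 18.1 ± 12.5 CPM in CKO_CRE and 17.2 ± 12 in CKO_PBS, and in WT it rose to 24.0 ± 4.08 CPM in WT_CRE, against 5.72 ± 1.91 in WT_PBS (log2 2.06 ± 0.55, adjusted p = 0.0081). *Csf3r*, the G-CSF receptor gene, was at 80.2 ± 36.7 CPM in CKO_CRE and 56.1 ± 27.1 in CKO_PBS, and rose in WT (log2 1.88 ± 0.37, adjusted p = 0.00135). *Ackr1*, which encodes a chemokine-binding receptor of venules and red cells, rose in both genotypes (log2 3.53 ± 0.79 in CKO and 4.25 ± 0.80 in WT). *Cxcr1* fell in CKO (log2 -1.91 ± 0.60, adjusted p = 0.0238). With all libraries, no receptor was called between the genotypes or for the difference of responses.

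The mature neutrophil markers, a list that holds *Cxcr2* and *Csf3r* as well, rose widely in WT. Of 10 tested of 12, 2 rose with CRE in CKO (median log2 0.02) and 9 in WT (median log2 1.88), with 0 lower in either, and with all libraries 0 were called between genotypes or for the difference of responses. The markers summed to 277, 491 and 160 CPM in CKO_CRE, 398, 501 and 302 CPM in WT_CRE, 220, 413 and 118 CPM in CKO_PBS and 111, 78.1 and 77.7 CPM in WT_PBS. Every CKO_PBS library was above every WT_PBS library while the CKO groups overlapped, and no chemokine of the set was called between CKO_PBS and WT_PBS. The highest PBS sum, 413 CPM, was that of CKO_PBS replicate 2, the only female PBS library. The part of neutrophils in the chemokine results was not tested. *Retnlg*, a neutrophil-secreted resistin-like gene, rose in both genotypes (log2 2.34 ± 0.40 in CKO and 4.16 ± 0.43 in WT). *Ly6g*, the defining surface marker of mouse neutrophils, did not exceed 1 CPM in any library, nor did *Elane*, *Mpo*, *Prtn3*, *Ctsg* and *Fcnb* of the neutrophil precursors.

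Cytokines that act upstream of these chemokines rose with CRE, 6 of 8 tested in each genotype (median log2 1.71 in CKO and 2.64 in WT), and 0 fell, and 2 further list members, *Il17f* and *Il36a*, were at or under 1 CPM throughout. The sums were 665, 732 and 482 CPM in CKO_CRE, 967, 881 and 975 CPM in WT_CRE, 182, 298 and 216 CPM in CKO_PBS and 163, 145 and 135 CPM in WT_PBS. All CKO_CRE libraries were below all WT_CRE libraries, and most of the sum was *Il33*, an alarmin of barrier cells, at 539 ± 96.3 CPM in CKO_CRE and 868 ± 74.0 in WT_CRE. *Il33* rose by log2 1.41 ± 0.17 in CKO and 2.71 ± 0.17 in WT, *Il1a* by 1.70 ± 0.29 and 1.86 ± 0.29 in the same genotypes, and *Il6* by 1.91 ± 0.63 in CKO and 4.48 ± 0.79 in WT. Between CKO_CRE and WT_CRE, the estimates of *Il1b*, *Il1a* and *Tnf* were above 0 and not called. *Il1b* was at 56.8 ± 23.1 CPM in CKO_CRE and 40.9 ± 15.8 in WT_CRE (log2 0.47 ± 0.39), *Il1a* at log2 0.12 ± 0.28 and *Tnf* at log2 0.03 ± 0.44. *Il36g* and *Csf2* were also above 0 (log2 0.08 ± 0.39 and 0.03 ± 0.39). *Il6* (log2 -0.97 ± 0.56), *Il17a* (log2 -0.12 ± 0.80) and *Il33* (log2 -0.69 ± 0.17) were below 0 and not called either. With all libraries, no upstream cytokine was called between CKO and WT under either treatment, and their part in the chemokine results was not tested.

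Of 9 tested receptors and adaptors of those cytokines, 5 rose and 1 fell in each genotype (median log2 0.32 in CKO and 0.34 in WT), with *Tlr2* leading in CKO (log2 1.13 ± 0.10) and *Il1r1*, the IL-1 receptor gene, in WT (log2 0.95 ± 0.12). *Tlr2* was the only one called between genotypes, and it was higher in CKO_CRE (64.7 ± 10.1 CPM) than in WT_CRE (45.0 ± 2.30 CPM; log2 0.52 ± 0.10, adjusted p = 0.0395). Of 8 genes of NF-kB and of mRNA decay feedback, 6 rose and 0 fell in each genotype. *Zc3h12a*, whose product cuts chemokine and cytokine mRNAs, rose by log2 1.47 ± 0.20 in CKO and 1.65 ± 0.20 in WT, and *Nfkb2*, an NF-kB subunit gene, by 1.06 ± 0.16 and 1.48 ± 0.16. The median of that list was 0.94 in CKO and 0.98 in WT, where all tested genes had 0.00 and 0.01.

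Immediate early genes, which respond quickly to many stimuli, moved both ways. Of 8, 3 rose and 3 fell in each genotype (median log2 0.24 in CKO and 0.23 in WT), with *Junb* higher (log2 1.02 ± 0.27 in CKO and 1.63 ± 0.27 in WT) and *Jun* lower (log2 -0.48 ± 0.11 in CKO and -0.54 ± 0.11 in WT). CXC chemokines outside the set rose in part, 4 of 7 tested in CKO (median log2 1.37) and 5 in WT (median log2 1.56), with 1 lower in each. *Cxcl13*, which draws B cells, rose by log2 3.96 ± 0.49 in CKO and 4.21 ± 0.48 in WT. *Cxcl10*, which draws T cells, rose by 3.63 ± 0.47 in CKO and 2.48 ± 0.48 in WT, and *Cxcl16* by 1.37 ± 0.25 in CKO and 1.56 ± 0.25 in WT. *Cxcl14* fell in both genotypes (log2 -0.45 ± 0.15 in CKO and -0.94 ± 0.15 in WT). None of the other CXC chemokines was called between the genotypes, so neither they nor the inducible members showed a genotype difference past the threshold with all libraries in the fit.

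Without CKO_CRE replicate 2, the companion genes were called between CKO_CRE and WT_CRE more often, as were genes at large (28.5%). Among the upstream cytokines *Il33* was then lower in CKO_CRE, and 1 of 8 was called. Of the NF-kB and mRNA decay feedback genes 2 of 8, *Nfkb2* and *Bcl3*, were lower, and of the other CXC chemokines 3 of 7, *Cxcl12*, *Cxcl13* and *Cxcl16*. The mature neutrophil markers were lower for 4 of 11 tested and the interstitial macrophage markers for 7 of 10, with 1 higher, whereas the club cell markers were higher for 6 of 8. The type 2 alveolar cell markers were higher for 5 of 8 and lower for 1. Of 11 platelet and megakaryocyte markers 2, *Tubb1* and *Gp5*, were higher and 1, *Itgb3*, was lower. The difference of responses was then called as lower in CKO for 8 of 11 mature neutrophil markers, *Cxcr2* and *Csf3r* among them, and for *Il33* and *Il6* (background 14.8%). In the CRE response of CKO itself, 4 of 8 upstream cytokines rose without that library, 1 mature neutrophil marker rose and 1 fell, and 1 immediate early gene rose and 1 fell, and of the upstream receptors and adaptors 4 rose and 1 fell, *Il1r1* losing its call. *Gp6* of the platelet list lost its call in CKO too. The counts of the NF-kB list, the receptors of the ligands, the other CXC chemokines and the interstitial macrophage markers were as with all libraries.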

How the data were processed

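Whole-lung RNA of 12 mouse libraries, 3 per group, was analysed. The values are read counts per gene as deposited by the authors, in 1 table whose 12 columns were all used. The submitters' processing notes name fastp, STAR and the build mm10, and no source used here gives the counting tool, its strand setting or its annotation. Symbols, positions and lengths came from GENCODE M21, which matched 54409 of 54532 identifiers.

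The quasi-likelihood F test of edgeR 4.0.16 (under R 4.3.3) was run on the whole table with TMM scaling, the filterByExpr filter (minimum count 10) and 1 mean for each of the 4 groups, and all adjusted p-values not credited to another tool are Benjamini-Hochberg values of this test over 17473 genes. The biological coefficient of variation was 17.4%. Each SE and 95% interval uses the quasi-likelihood variance. The labels do not say that libraries came from separate mice, so p-values measure the spread between libraries. TPM use the longest protein-coding transcript. Alternatives used DESeq2 1.42.0, limma 3.58.1 and other settings, and copies were sought with blastn 2.17.0, at 98% or more over at least 200 bases. The scripts were checked on simulated counts.

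All 8 members are named. Of each gene list, up to 3 called genes with the smallest p are named per comparison, and further list genes, such as *Abca3*, *Sftpc*, *Sftpa1*, *Clec1b*, *Itgb3*, *Lyve1*, *Il1b*, *Tnf*, *Fabp4*, *Siglecf* and *Pparg*, were named after their values were seen. For likeness, the 3 genes with the highest Pearson r were eligible, leaving out predicted symbols, pseudogenes and genes under 1 CPM on average. Members and lists were chosen with earlier results of these data known. Same-numbered libraries were not treated as pairs.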

Additional observations from a re-analysis of the deposited data

How the results depend on the processing

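Over the other settings, 732 of 754 member values kept their side of the threshold, 37 of them, called in neither fit, with a change of sign, while 10 lost and 12 gained a call and 0 called values changed sign. Members called between CKO_CRE and WT_CRE, 0 as reported, were 5 with limma-voom, 1 with no low-count filter and 0 to 2 with 1 library left out. Those called for the difference of CRE responses, 0 as reported, were 2 with limma-voom and 0 to 1 with 1 library left out. The replicate block left the member counts at 5 (CRE in CKO), 8 (CRE in WT) and 0 (the other comparisons). Whether replicate numbers pair the libraries could not be told. Of 18 same-numbered pairs 4 had r over 0.1 (range -0.03 to 0.18), while 8 of 12 libraries correlated best with their own number. Limma-voom also gave smaller CRE effects in CKO for *Cxcl5* (log2 3.65 ± 0.72) and *Pf4* (1.97 ± 0.26), and *Csf3* was filtered out where only the compared groups were fitted.

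Over all genes, calls between CKO_CRE and WT_CRE (160 as reported) were 807 with DESeq2, 7645 with limma-voom, 691 with no filter, 29 with only the groups compared, 7 in female libraries, an alternative chosen after seeing the data, and 38 to 5112 with 1 library left out, the highest without CKO_CRE replicate 2. Under PBS (19) they were 107, 146, 89, 74 and 12 to 53 in the same order without the female setting, for the difference of responses (8) they were 120 with DESeq2, 4371 with limma-voom, 81 with no filter, 0 with the replicate block, 2 with sex as a covariate and 0 to 2660 with 1 library left out, and for CRE in CKO (6830) they were 3812 with only the groups compared.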

Other observations

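Markers of alveolar macrophages, which can also make CXCR2 ligands, had estimates of both signs between the genotypes under CRE. Of 8 tested, 2 were higher in CKO_CRE than in WT_CRE, *Plet1* (72.6 ± 15.4 CPM in CKO_CRE and 31.7 ± 4.41 in WT_CRE, log2 1.19 ± 0.14, adjusted p = 0.00231) and *Krt79* (50.7 ± 24.7 and 5.18 ± 3.82 CPM in the same groups, log2 3.29 ± 0.45, adjusted p = 0.0077). The estimate of *Fabp4* had the opposite sign and was not called, at 27.8 ± 14.3 CPM in CKO_CRE and 62.0 ± 9.82 in WT_CRE (log2 -1.15 ± 0.34, adjusted p = 0.128), and *Siglecf* and *Pparg* were at log2 -0.08 ± 0.16 and -0.20 ± 0.19. Without CKO_CRE replicate 2, 4 of the 8 were higher in CKO_CRE and 1, *Fabp4*, was lower. The summed markers were 690, 515 and 584 CPM in CKO_CRE, 495, 480 and 387 CPM in WT_CRE, 417, 373 and 381 CPM in CKO_PBS and 382, 418 and 392 CPM in WT_PBS. Every CKO_CRE library was above every WT_CRE library for this sum. Its largest parts were *Car4* (209 ± 62.2 CPM in CKO_CRE and 149 ± 25.0 in WT_CRE) and *Ear2* (191 ± 23.8 and 170 ± 26.8 CPM), neither called. The sum thus does not stand for all of the markers, and the part of alveolar macrophages in the chemokine results was not tested. With CRE, 3 of the 8 rose and 0 fell in CKO, and 2 rose and 3 fell in WT.

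Neutrophil precursor markers, of which 5 of 9 were tested, rose for 2 in each genotype. These were *Chil3*, a chitinase-like gene that macrophages also express (log2 3.10 ± 0.15 in CKO and 3.45 ± 0.15 in WT), and *Ltf*, the lactoferrin gene (log2 1.35 ± 0.39 in CKO and 2.23 ± 0.39 in WT). Without CKO_CRE replicate 2, *Chil3* alone was called in CKO. Of the red cell markers 0 of 5 were called in CKO and 1 rose in WT.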
